A study of Mus musculus with 6 samples.

Results

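Jmjd6, Mettl23 and 8 genes of the early splicing machinery (U2af1, U2af2, U2af1l4, Luc7l, Luc7l2, Luc7l3, Srsf11 and Acin1) were followed through RNA-seq of fetal thymic stroma with and without Jmjd6. The genes were taken by their symbols, and all 10 were found among the 22513 entries of the gene table, each as an entry of its own. The samples were fetal thymus organ cultures (FTOCs) of C57BL/6 mice, treated for 4 days with 2-deoxyguanosine (2-DG). This drug is used to deplete haematopoietic cells and keep the stroma. The 6 libraries were 1 of wild type (WT) and 1 of Jmjd6-/- stroma without stimulation, and 2 of WT and 2 of Jmjd6-/- stroma stimulated for 4 days with RANKL, the TNF-family ligand that drives maturation of medullary thymic epithelial cells. The Jmjd6-/- embryos came from crosses of Jmjd6+/- mice backcrossed to C57BL/6, and the mutation was carried in every cell, not in the stroma alone. Which bases of the gene the allele removes is not given in the sources used here. The sample labels call the repeated libraries technical duplicates, so the p-values below measure the spread between these libraries, which may be technical. Levels were the authors' FPKM (fragments per kilobase of transcript, scaled to the number of mapped fragments), a unit per length in which genes can be compared with each other.

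Jmjd6 is a nuclear dioxygenase that uses iron and 2-oxoglutarate to hydroxylate lysines, and its known substrates include splicing proteins rich in arginine and serine, among them the large U2AF subunit and Luc7-like proteins. The U2AF heterodimer marks the end of an intron: U2af2 encodes the large subunit, which binds the polypyrimidine tract, and U2af1 the small subunit, which binds the AG at the 3' splice site, while U2af1l4 is a relative of the small subunit. Luc7-like proteins belong to the U1 snRNP side, where the 5' splice site is chosen, Srsf11 is an SR-related protein that binds the U2AF large subunit, and Acin1 (acinus) is a core protein of the ASAP complex at the exon junction. Mettl23 encodes a protein methyltransferase and lies head to head with Jmjd6.

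In the mm10 assembly Jmjd6 occupied chr11:116837432-116843449 on the minus strand and Mettl23 chr11:116843515-116849740 on the plus strand. By RefSeq the 2 start sites were 65 bases apart, and 67.7% of the bases between them were G or C. GENCODE instead starts Mettl23 at 116843278, inside Jmjd6, so that these bases lie within Mettl23 there. The stretch that holds both starts is shown because it is the sequence that the genes share (RefSeq, GRCm38.p6, chr11:116843420-116843544, plus strand). Capitals mark the 65 bases between the starts, with the first 30 transcribed bases of Jmjd6 (antisense as written) to the left and of Mettl23 to the right.

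Jmjd6 and Mettl23 start region: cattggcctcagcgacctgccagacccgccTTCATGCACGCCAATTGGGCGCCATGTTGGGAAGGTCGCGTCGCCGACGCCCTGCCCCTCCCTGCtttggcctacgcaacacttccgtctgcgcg

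Counted along the plus strand from the Jmjd6 start, the letters CCAAT lay at 11 on the plus strand and at 14 and -28 on the minus strand, where the plus-strand and minus-strand matches at 11 and 14 overlap. A match to the YY1 motif (GCCATNTT) lay at 21 on the plus strand and one to the ETS motif (CGGAAGT) at 81 on the minus strand. Searched on both strands of all 32851 RefSeq windows of 250 bases before to 50 bases after a gene start, CCAAT was present in 37.4% of windows, the YY1 letters in 6.05% and the ETS letters in 6.42%. Counted by gene, with any window of a gene sufficing, these shares were 41.1%, 6.96% and 7.20% of 27025 genes. Windows were found for 8 of the 10 genes (U2af2 and Luc7l had no entry), 13 in all, since Acin1 had 4 and U2af1 and Srsf11 had 2 each, which gives these 3 genes more chances of a match. Of these 8 genes, 5 held the YY1 letters (Acin1, Jmjd6, Luc7l3, Mettl23 and U2af1l4) and 5 the ETS letters (Acin1, Jmjd6, Mettl23, Srsf11 and U2af1l4), in 6 of the 13 windows each. The windows of Jmjd6 and Mettl23 share 165 bases, so these 2 genes are not separate observations. The letters TATAAA were in none of the 8 genes' windows and in those of 15.7% of all genes, GGGCGG was in those of 4 genes and of 38.2% of all genes, and the NRF1 motif was in those of Srsf11 alone and of 1.07% of all genes. A match is a description of the letters and does not show that a factor binds.

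Some features of the libraries touch these genes. The steps between low FPKM values gave an estimated depth of 15500000 to 30400000 fragments per library. The read total in the study's methods, counted as pairs, implies a depth lower by a factor of 1.52. Replicate 2 over replicate 1 of WT RANKL ran with GC content, from a median log2 difference of -0.41 in the lowest of 10 equal bins of GC to 0.28 in the highest, while in Jmjd6-/- RANKL the same medians stayed between -0.02 and 0.01. Luc7l3, with 41.8% GC, was 0.790 times as high in the second WT RANKL library as in the first, and Jmjd6, with 56.5% GC, 1.25 times as high. Cortical (8 genes, summed 10182 to 16052 FPKM) and medullary (9 genes) epithelial markers were abundant, and T cell genes (8 genes) summed to 1.11 to 3.52 FPKM. Macrophage genes (6 genes) summed to 501 to 670 FPKM, so transcripts of haematopoietic cells remained in every library. Mast cell genes (6 genes) summed to 22.3 and 12.2 FPKM in WT RANKL and to 5.01 and 4.15 FPKM in Jmjd6-/- RANKL libraries. Unstimulated, their sum was 3.91 FPKM in WT and 2.03 FPKM in Jmjd6-/- stroma. The summed FPKM of the medullary epithelial, mesenchymal and endothelial markers differed between genotypes. A sum follows its most abundant genes, and single markers were not compared here. The paper reports comparable transcript of Aire and Cd80, both in the medullary list, in WT and Jmjd6-/- stroma with RANKL. The 9 genes listed as medullary were Aire, Tnfrsf11a, Cd80, Epcam, Krt5, Krt14, Cldn3, Cldn4 and Fezf2. All were detected, with a higher sum in each Jmjd6-/- library (2169 to 2281 FPKM) than in any WT library (1377 to 1858 FPKM). In WT this sum was 1738 FPKM unstimulated and 1377 and 1858 FPKM with RANKL. It does not count cells, and the paper found comparable numbers of medullary epithelial cells in embryonic thymi of both genotypes by flow cytometry. All 7 mesenchymal genes were detected, at a sum of 635 to 697 FPKM in WT and 304 to 407 FPKM in Jmjd6-/- libraries, and the 5 endothelial genes, none of them at 0 throughout, at 12.3 to 22.4 against 4.10 to 8.31 FPKM. The part of cell composition in the genotype comparisons was not tested, and in bulk RNA fewer cells of a type and less RNA per cell cannot be told apart.

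Jmjd6 itself checked the labels. It stood at 26.3 FPKM in unstimulated WT stroma and at 25.9 and 32.5 FPKM in the WT RANKL libraries. In Jmjd6-/- stroma it was at 1.32 FPKM unstimulated and at 1.96 and 1.78 FPKM with RANKL. Every Jmjd6-/- library lay far below every WT library, and a low level remained in each of the 3. With RANKL the mean was 29.2 ± 4.63 FPKM (SD, n = 2) in WT and 1.87 ± 0.129 FPKM (SD, n = 2) in Jmjd6-/- stroma, which is 15.6-fold. By limma the difference in log2(FPKM + 0.1) was -3.89 (SE 0.17, adjusted p = 0.0138). The allele is the experimental variable here, so this is a check of the labels and no result about the response.

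Mettl23 was at or under the limit of detection in Jmjd6-/- stroma. It stood at 28.7 FPKM in unstimulated WT stroma and at 24.5 and 31.6 FPKM in the WT RANKL libraries, against 0 FPKM in unstimulated Jmjd6-/- stroma and 0.0949 and 0 FPKM in the Jmjd6-/- RANKL libraries. The 1 value above 0 is worth about 2.15 fragments at the estimated depth. With 3 fragments per library as the limit of detection, the level with RANKL was at least 183-fold lower than in WT, mean over mean. Without stimulation it was at least 132-fold lower. The lowest WT RANKL library over the highest limit gives a bound of 141-fold. The 3 fragments are a setting and no upper counting limit for the library at about 2.15, and they cover no spread between samples. The depth implied by the read total in the study's methods lowers these bounds to 121-fold, 86.7-fold and 92.9-fold. The fitted difference in log2(FPKM + 0.1), -7.64 (SE 0.37, limma, adjusted p = 0.0138), depends on the added 0.1 and is no bound. By these entries, the share of the WT level that remained was smaller for the gene beside the targeted one than for the targeted gene.

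In WT stroma the 2 genes were close to each other in level, with Mettl23 over Jmjd6 at 1.09 unstimulated and at 0.947 and 0.973 with RANKL. Across the 6 libraries their log2 levels had a Pearson r of 0.997, a description of 6 points that share the genotype split. The 1 basic Mettl23 transcript of GENCODE starts inside Jmjd6, so that the genes share 172 bases on opposite strands. The authors ran Cufflinks with a strand-specific library type, while nothing in the description of the preparation says that strand was kept. Without strand, reads of the shared bases cannot be told apart between the genes.

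Under RANKL, 2 of the 10 genes passed the threshold (adjusted p under 0.05 over 15894 entries), both lower in Jmjd6-/- stroma, beside 2.34% of all entries in either direction, 1.82% lower and 0.516% higher. The 2 were Jmjd6 and Mettl23. The balance of directions over all entries turned with the WT RANKL libraries, from 82 higher and 290 lower to 2254 higher and 1737 lower without the first and 208 higher and 149 lower without the second. None of the 8 splicing genes passed, and at an unadjusted p under 0.05 the count over the 10 genes was again 2, beside 18.8% of all entries. Without replicates in unstimulated stroma there is no test, and again Jmjd6 and Mettl23 were more than 2-fold lower in Jmjd6-/- stroma while the 8 others stayed within 2-fold, beside 6.45% of entries past that fold, 3.45% lower and 2.99% higher. These 2 genes were also the ones whose 6 libraries spanned more than 3-fold, the range that the study's methods used to select genes, beside 14.3% of all entries.

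**Figure D1:**
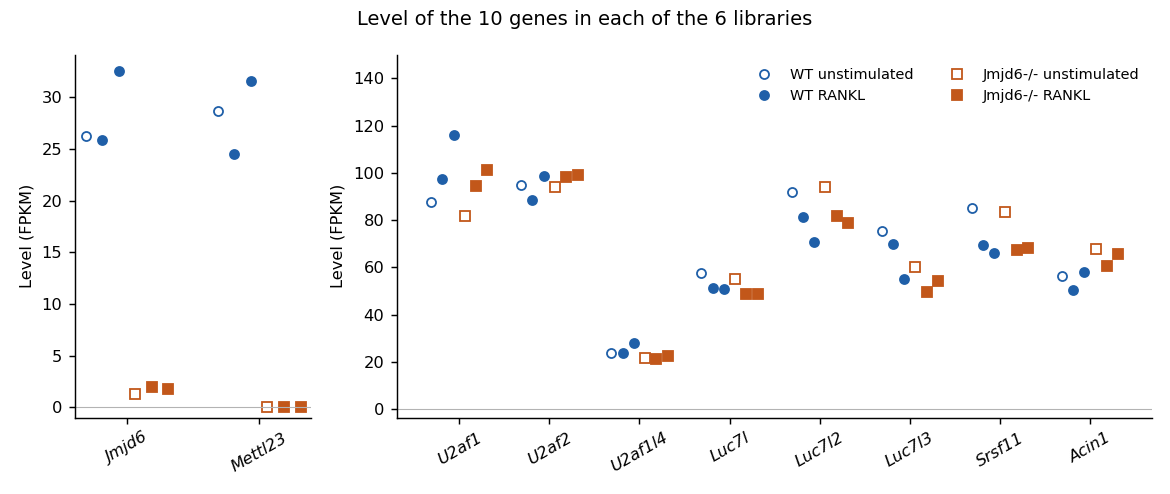
Level (FPKM, linear axes with separate scales for the 2 panels) of each of the 10 genes in each library. Open symbols are unstimulated, filled symbols RANKL, circles WT and squares Jmjd6-/-. Jmjd6 and Mettl23 lie at 24.5 to 32.5 FPKM in WT and at 1.96 FPKM or less in Jmjd6-/- libraries, and the ranges of the 8 splicing genes stay within 1.52-fold.

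Among the U2AF genes, both subunits were abundant and neither passed the threshold between genotypes. U2af2 was at 94.8 FPKM in unstimulated WT and at 88.4 and 98.7 FPKM in WT RANKL, and at 94.2 FPKM in unstimulated Jmjd6-/- and 98.1 and 99.2 FPKM in Jmjd6-/- RANKL libraries. Its 6 values spanned 1.12-fold, the narrowest range of the 10 genes, and the genotypes overlapped. With RANKL, Jmjd6-/- over WT was 1.06-fold with a 95% interval of 0.871 to 1.28 (limma, adjusted p = 0.768).

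U2af1 was at 87.7 FPKM in unstimulated WT and at 97.2 and 116 FPKM in WT RANKL, and at 81.6 FPKM in unstimulated Jmjd6-/- and 94.4 and 101 FPKM in Jmjd6-/- RANKL libraries. Its RANKL libraries were all higher than both unstimulated ones, and the genotypes overlapped with RANKL. The genotype ratio with RANKL was 0.921 with an interval of 0.735 to 1.15 (adjusted p = 0.691).

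U2af1l4, the minor member, was at 23.7 FPKM in unstimulated WT and at 23.9 and 28.0 FPKM in WT RANKL, and at 21.5 FPKM in unstimulated Jmjd6-/- and 21.2 and 22.4 FPKM in Jmjd6-/- RANKL libraries. All 3 Jmjd6-/- libraries lay below all 3 WT libraries. The fitted ratio with RANKL was 0.843 with an interval of 0.673 to 1.06 (adjusted p = 0.392), which misses the threshold. With 1 RANKL library left out, the log2 difference was -0.359 without the first and -0.135 without the second WT library. It was -0.207 and -0.286 without the first and second Jmjd6-/- library. U2af1l4 lies at chr7:30563340-30565364 and shares bases with Psenen, 288 of them on the other strand, and with the model Gm49396 on its own strand, so its value may hold reads of both.

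Within the summed FPKM of the 3 U2AF genes, U2af1l4 made up 11.5% in unstimulated WT and 11.4% and 11.5% in WT RANKL libraries, and from 9.91% to 10.9% in the 3 Jmjd6-/- libraries. The share was lower in each Jmjd6-/- library, without a test. The ratio of U2af2 to U2af1 was 1.08 in unstimulated WT and 0.909 and 0.851 in WT RANKL libraries, and 1.15, 1.04 and 0.980 in the corresponding Jmjd6-/- libraries, so that the ratio was lower with RANKL in both genotypes.

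None of the 3 Luc7-like genes passed the threshold between genotypes. Luc7l2, known as a substrate of Jmjd6, was at 92.0 FPKM in unstimulated WT and at 81.5 and 70.6 FPKM in WT RANKL, and at 93.9 FPKM in unstimulated Jmjd6-/- and 81.8 and 78.8 FPKM in Jmjd6-/- RANKL libraries. All RANKL libraries lay below both unstimulated ones and the genotypes overlapped. Jmjd6-/- over WT with RANKL was 1.06 with an interval of 0.860 to 1.30 (limma, adjusted p = 0.776).

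Luc7l was at 57.7 FPKM in unstimulated WT and at 51.2 and 50.7 FPKM in WT RANKL, and at 55.3 FPKM in unstimulated Jmjd6-/- and 48.8 and 48.7 FPKM in Jmjd6-/- RANKL libraries. Its RANKL pairs were close, with SDs of 0.355 FPKM in WT and 0.0645 FPKM in Jmjd6-/- stroma. The genotype ratio with RANKL was 0.957 with an interval of 0.804 to 1.14 (adjusted p = 0.794), although the pairs did not overlap.

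Luc7l3 was at 75.3 FPKM in unstimulated WT and at 70.0 and 55.3 FPKM in WT RANKL, and at 60.0 FPKM in unstimulated Jmjd6-/- and 49.6 and 54.2 FPKM in Jmjd6-/- RANKL libraries. The RANKL pairs did not overlap, with the second WT library, the one in which genes low in GC were lower, at 55.3 against 54.2 FPKM for the nearest Jmjd6-/- library. The genotype ratio with RANKL was 0.834 with an interval of 0.644 to 1.08 (adjusted p = 0.432). The log2 difference of -0.262 was -0.432 without the second WT RANKL library (adjusted p = 0.0672), -0.0929 without the first (0.394) and -0.366 with the trend in GC content removed (0.0954, limma), none of which passed.

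As a share of the 3 Luc7-like genes, Luc7l3 made up 33.5%, 34.5% and 31.3% in WT, listed as unstimulated and then the RANKL replicates, and 28.7%, 27.5% and 29.8% in Jmjd6-/- stroma. Luc7l2 made up 40.9%, 40.2% and 40.0% in WT and 44.9%, 45.4% and 43.4% in Jmjd6-/- libraries. Neither set of 3 overlapped the other in these shares, and the share of Luc7l did overlap (25.3% to 28.7% in WT, 26.4% to 27.1% in Jmjd6-/-). A share has no counterpart over all entries here and was not tested. On the other strand, the span of Luc7l shares 7350 bases with AC126438.2 and that of Luc7l2 2477 bases with Gm26699. Their values may hold reads of these genes.

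**Figure D2:**
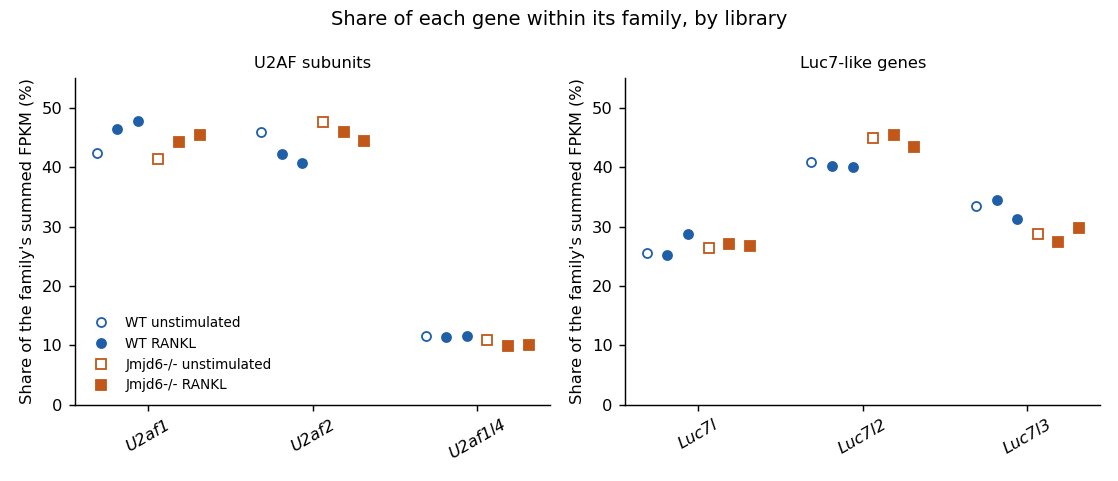
Share (%) of each gene in the summed FPKM of the 3 U2AF genes (left) and the 3 Luc7-like genes (right), 1 point per library, with open symbols unstimulated, filled symbols RANKL, circles WT and squares Jmjd6-/-. Luc7l2 lies at 40.0% to 40.9% in WT and 43.4% to 45.4% in Jmjd6-/- libraries, and Luc7l3 at 31.3% to 34.5% and 27.5% to 29.8%.

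Acin1 was at 56.5 FPKM in unstimulated WT and at 50.6 and 58.2 FPKM in WT RANKL, and at 67.6 FPKM in unstimulated Jmjd6-/- and 60.6 and 65.6 FPKM in Jmjd6-/- RANKL libraries. It was the 1 gene of the 10 for which all 3 Jmjd6-/- libraries lay above all 3 WT libraries. The fitted ratio with RANKL was 1.16 with an interval of 0.939 to 1.44 (limma, adjusted p = 0.433). Acin1 shares bases with 3 annotated genes on the opposite strand, 1700123O20Rik, 4930579G18Rik and Gm17606, so its value may hold reads of these.

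Srsf11 was at 85.1 FPKM in unstimulated WT and at 69.5 and 66.0 FPKM in WT RANKL, and at 83.4 FPKM in unstimulated Jmjd6-/- and 67.4 and 68.1 FPKM in Jmjd6-/- RANKL libraries. The means of the genotypes with RANKL were 67.8 ± 2.47 and 67.7 ± 0.501 FPKM (SD, n = 2 each), and the pairs overlapped. The fitted genotype ratio was 1.000 with an interval of 0.837 to 1.19 (limma, adjusted p = 0.999).

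Counted together, 6 of the 10 genes had RANKL pairs that did not overlap between genotypes (5 lower in Jmjd6-/- and Acin1 higher), beside 50.7% of all entries tested. Over all 3 libraries per genotype, 4 of 10 did not overlap (Jmjd6, Mettl23 and U2af1l4 lower, Acin1 higher), beside 18.3% of all entries, 9.14% in each direction. Both counts include the targeted gene Jmjd6, which is a check of the labels, and Mettl23 beside it. Of the splicing genes, only U2af1l4, Luc7l, Luc7l3 and Acin1 had RANKL pairs that did not overlap. Over all 3 libraries only U2af1l4 and Acin1 did not. The mesenchymal and endothelial sums given above were lower and the medullary sum higher in the same split of libraries, and their part was not tested. An exact permutation test of 2 against 2 libraries cannot go below p = 0.333, so a gap between pairs does not pass a test for a single gene.

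The next comparison asked whether RANKL moved these genes, with both genotypes in one fit. Srsf11 fell by 0.31 on the scale of log2(FPKM + 0.1), a ratio of 0.804 with an interval of 0.711 to 0.909 (SE 0.07, limma, adjusted p = 0.0354). The fall was present in all 4 RANKL libraries, at 66.0 to 69.5 FPKM against 83.4 and 85.1 FPKM. It was the 1 gene of 10 past the threshold, beside 14.7% of all entries in either direction and 4.11% lower, and the call was lost without the mean-variance trend (adjusted p = 0.0987), after scaling to equal totals (0.0674) or without either Jmjd6-/- RANKL library (0.161 and 0.151). With the trend in GC content removed it was lost too (0.0648).

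The other members missed the threshold in this comparison. U2af1 had a ratio of RANKL to unstimulated of 1.20 (interval 1.03 to 1.41, limma, adjusted p = 0.120), Luc7l2 0.840 (0.725 to 0.972, adjusted p = 0.112) and Luc7l 0.883 (0.783 to 0.995, adjusted p = 0.155). These 3 and Srsf11 had RANKL libraries that did not overlap the unstimulated ones, 4 of 10 genes (3 lower, 1 higher) beside 37.4% of all entries (18.5% lower, 18.9% higher), and the same 4 genes had an unadjusted p under 0.05, beside 29.7% of all entries. With 1 RANKL library left out, the log2 difference ran from 0.212 to 0.321 for U2af1 and from -0.293 to -0.204 for Luc7l2. For Luc7l3 it ran from -0.312 to -0.166. Luc7l passed without the filter on low values (adjusted p = 0.0264, limma), a fit that called 1087 of all entries. Luc7l3 had a ratio of 0.845 (0.701 to 1.02), U2af1l4 1.05 (0.893 to 1.24), U2af2 1.02 (0.886 to 1.17) and Acin1 0.946 (0.814 to 1.10). Jmjd6 had a ratio of 1.24 (0.969 to 1.58, adjusted p = 0.218). In WT stroma alone, the mean of the Jmjd6 RANKL libraries was 1.11 times the unstimulated value, and that of Mettl23 0.979 times, with each unstimulated value inside the range of its RANKL pair.

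**Figure D3:**
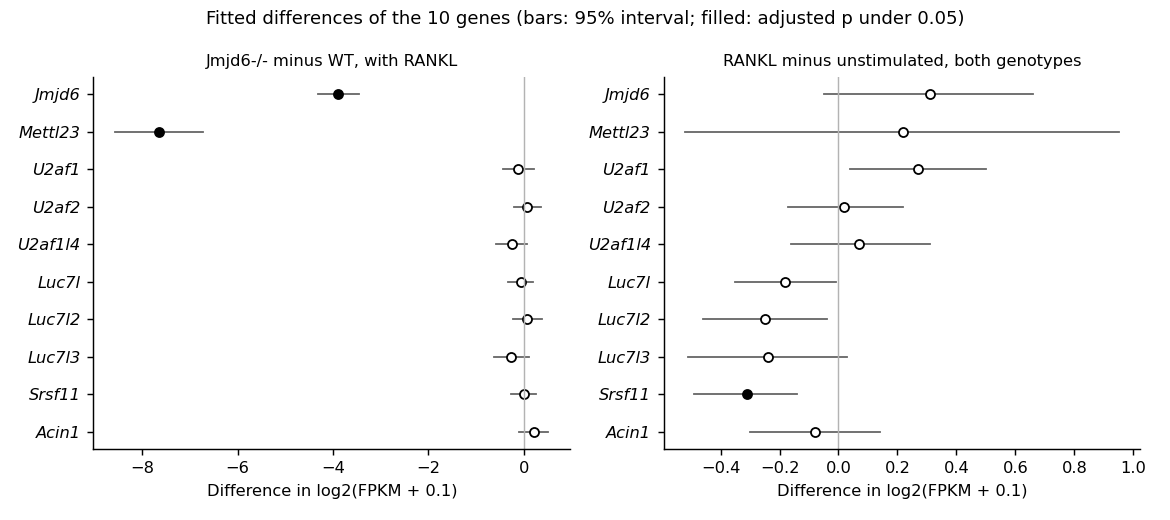
Fitted difference in log2(FPKM + 0.1) of each gene with its 95% interval (limma), Jmjd6-/- minus WT with RANKL on the left and RANKL minus unstimulated over both genotypes on the right, on separate scales. Filled points passed an adjusted p of 0.05, which Jmjd6 (-3.89) and Mettl23 (-7.64) did on the left and Srsf11 (-0.31) on the right.

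The response to RANKL was then compared between genotypes. None of the 10 genes passed the threshold (adjusted p of 1.000 for each by limma), beside 0% of all entries, and at an unadjusted p under 0.05 none of the 10 passed while 4.18% of all entries did. The difference in response of Srsf11 was 0.03 on the log2 scale (interval -0.42 to 0.47) and that of U2af1 -0.02 (-0.58 to 0.55), which for U2af1 is a ratio of responses anywhere from 0.669 to 1.46. This contrast rests on 1 unstimulated library per genotype.

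In level, U2af2, U2af1 and Luc7l2 were the 3 most abundant of the 10 genes in 5 of the 6 libraries (Srsf11 came before U2af1 in unstimulated Jmjd6-/- stroma) and U2af1l4 the least of the 8 splicing genes in all 6. In WT with RANKL the means ran from U2af1 (107 ± 13.2 FPKM) and U2af2 (93.6 ± 7.25) through Luc7l2 (76.0 ± 7.73), Srsf11 (67.8 ± 2.47), Luc7l3 (62.6 ± 10.4), Acin1 (54.4 ± 5.38) and Luc7l (51.0 ± 0.355) to Jmjd6 (29.2 ± 4.63), Mettl23 (28.1 ± 4.97) and U2af1l4 (25.9 ± 2.86, SD, n = 2 each). The neighbouring pairs Srsf11 and Luc7l3, Luc7l3 and Acin1, Acin1 and Luc7l, Jmjd6 and Mettl23, and Mettl23 and U2af1l4 differed by less than the larger of their SDs. With Jmjd6 and Mettl23 at 24.5 to 32.5 FPKM, the hydroxylase and its neighbour were expressed below each of the splicing genes apart from U2af1l4.

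Genes around Jmjd6 were compared under RANKL to see how far along the chromosome the difference reached. Within 250 kb the table held 13 other entries, of which 10 passed the filter at a mean of 0.1 FPKM, and none passed the threshold. Srsf2, a splicing factor whose span begins 6447 bases from Jmjd6, just past Mettl23, was at 168 FPKM in unstimulated WT and at 165 and 184 FPKM in WT RANKL, and at 140 FPKM in unstimulated Jmjd6-/- and 164 and 154 FPKM in Jmjd6-/- RANKL libraries, a fitted ratio of 0.914 (interval 0.747 to 1.12, limma, adjusted p = 0.626). Mfsd11, a transporter-like gene 10565 bases away, had a ratio of 1.12 (0.858 to 1.45). The intervals of these nearest genes on the same side reach down to ratios of 0.747 and 0.858, while Mettl23 between them and Jmjd6 was at or under the limit of detection.

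Mxra7, 9385 bases away on the other side, was at 9.61 FPKM in unstimulated WT and at 7.01 and 8.76 FPKM in WT RANKL, and at 4.15 FPKM in unstimulated Jmjd6-/- and 3.91 and 4.63 FPKM in Jmjd6-/- RANKL libraries. All Jmjd6-/- libraries lay below all WT libraries, at a ratio of 0.549 (interval 0.396 to 0.761) that missed the threshold by limma (adjusted p = 0.0826). 1810032O08Rik, 161633 bases away, was likewise lower in each Jmjd6-/- library, at 4.98, 6.14 and 6.35 against 9.82, 10.1 and 13.4 FPKM, with a ratio of 0.540 (0.393 to 0.743, adjusted p = 0.0752). With the trend in GC content removed both passed (adjusted p = 0.0444 for Mxra7 and 0.0434 for 1810032O08Rik, limma). That fit called 716 of all entries, against 372 in the main fit. Without the filter on low values both missed (adjusted p = 0.232 for each, limma). With 1 RANKL library left out, the log2 difference ran from -1.02 to -0.706 for Mxra7 and from -1.09 to -0.682 for 1810032O08Rik. The sum of the mesenchymal markers given above, which was lower in Jmjd6-/- libraries, moved with both genes, and its part was not tested.

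2810008D09Rik was at 15.1 and 24.4 FPKM in WT RANKL and at 10.3 and 12.4 FPKM in Jmjd6-/- RANKL libraries, a ratio of 0.590 (0.383 to 0.911, adjusted p = 0.191). Its log2 difference of -0.76 by limma became -1.10 without the first and -0.42 without the second WT RANKL library. It was -0.631 and -0.889 without the first and second Jmjd6-/- library. The remaining neighbours Rhbdf2, Cygb, Gm11744, St6galnac2 and Mgat5b had log2 differences from -0.52 to 0.27. Of the 10 tested neighbours, 6 had a Jmjd6-/- RANKL pair wholly below the WT pair and 1 wholly above, beside 26.2% of all entries lower and 24.5% higher. Aanat, BC018473 and St6galnac1 stayed below the filter.

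**Figure D4:**
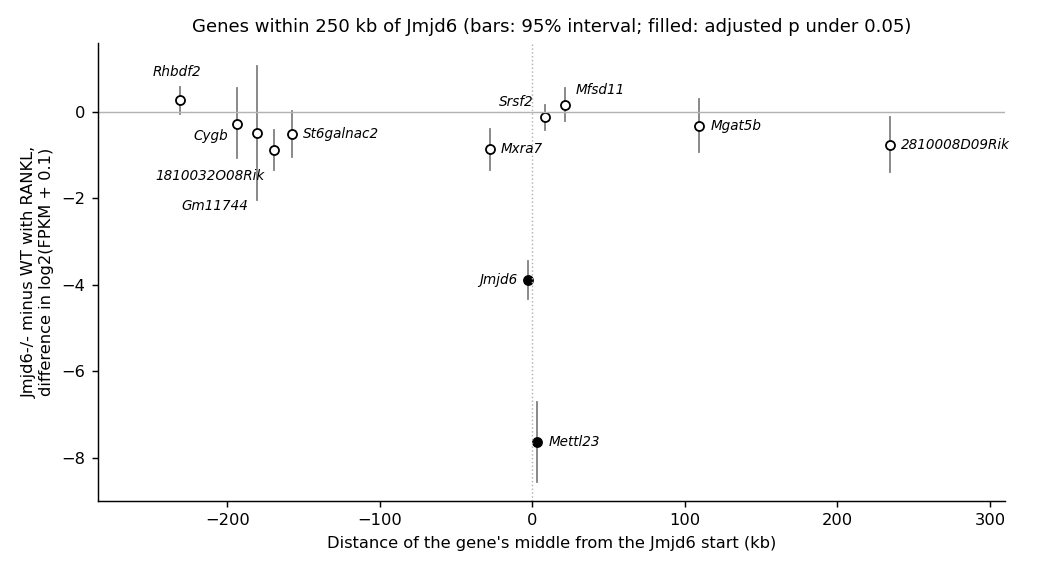
Fitted difference in log2(FPKM + 0.1), Jmjd6-/- minus WT with RANKL, against the distance in kb of the middle of each gene within 250 kb from the Jmjd6 start, with 95% intervals (limma). Filled points passed an adjusted p of 0.05, and Mettl23 (-7.64) and Jmjd6 (-3.89) lie below the other genes, which range from -0.89 to 0.27.

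The rest of the early splicing machinery was read from 4 lists of genes, none holding any of the 10. Of 17 genes tested for 3' splice site and branch point recognition (the branch point protein Sf1, the SF3a and SF3b complexes and U2AF relatives), none passed between genotypes with RANKL, with a median log2 difference of 0.03 beside 0.01 over all entries tested. Of 15 genes of the U1 snRNP and 5' splice site none passed (median -0.05), nor did any of 14 SR proteins (median -0.08) or any of 8 genes of the exon junction and ASAP complexes (median -0.04), to which Acin1 belongs. The single differences over the 4 lists ran from -0.51 to 0.56. At the top of their lists in level, Rbm39, a U2AF-like RNA-binding protein, was at 161 to 201 FPKM in WT and 156 to 186 FPKM in Jmjd6-/- libraries, and Srsf5, an SR protein, at 202 to 315 against 226 to 262 FPKM. Sf3b2, of the SF3b complex, was at 91.6 to 100 against 98.5 to 104 FPKM, and the Sm proteins Snrpg and Snrpd2 were at 194 to 268 against 187 to 215 FPKM and at 161 to 244 against 175 to 190 FPKM. Sap18, a partner of Acin1 in the ASAP complex, was at 150 to 171 against 160 to 165 FPKM. Magoh, of the exon junction complex, was at 177 to 191 against 167 to 195 FPKM. The ranges overlapped between genotypes for each of these 7 genes.

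With RANKL over both genotypes, 3 genes of the 4 lists passed, 1 of 17 and 2 of 15 in their lists and none in the other two, beside 14.7% of all entries (10.5% higher, 4.11% lower). Zrsr1, a relative of U2af1, fell by 0.49 on the log2 scale (SE 0.13, limma, adjusted p = 0.0449), with 8.20 and 7.83 FPKM unstimulated and 5.38 to 6.36 FPKM with RANKL, 1 of 17 in its list. Prpf39, a U1-associated protein, fell by 0.41 (SE 0.10, adjusted p = 0.0340), from 32.9 and 35.2 FPKM to 22.3 to 28.3 FPKM, and Snrpd1, a core Sm protein, rose by 0.32 (SE 0.08, adjusted p = 0.0389), from 67.3 and 60.8 FPKM to 72.6 to 87.7 FPKM, which makes 1 lower and 1 higher of 15. No SR protein and no gene of the exon junction and ASAP lists passed. None of the 3 calls held without the trend or after scaling to equal totals (adjusted p from 0.0600 to 0.104), without the filter on low values (0.0514 to 0.0888) or without either Jmjd6-/- RANKL library (0.0986 to 0.175, limma). In the genotype difference of the response no gene of the lists passed.

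**Figure D5:**
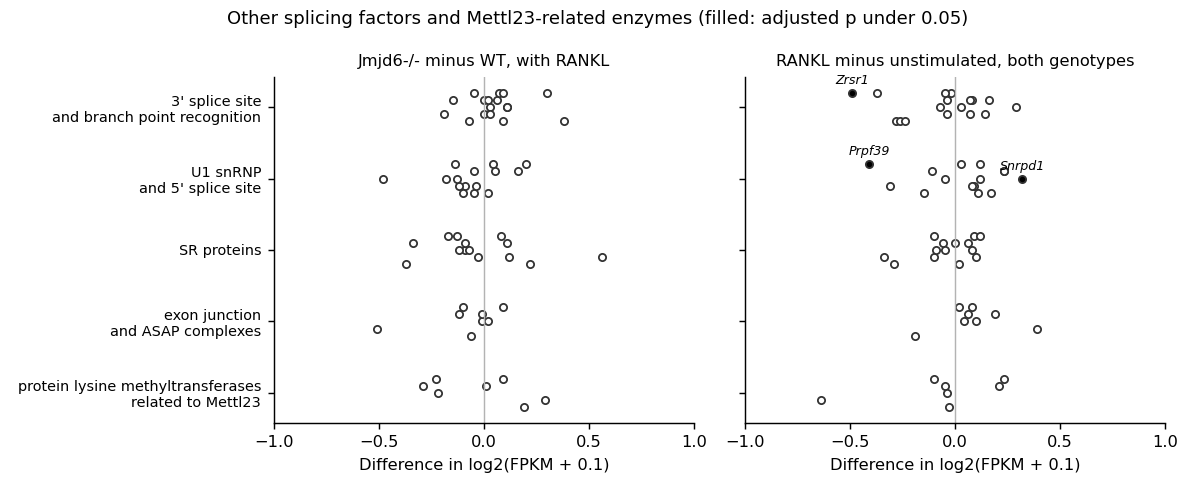
Fitted difference in log2(FPKM + 0.1) of each tested gene in 4 lists of splicing factors and 1 of enzymes related to Mettl23, 1 point per gene, Jmjd6-/- minus WT with RANKL on the left and RANKL minus unstimulated on the right. Filled, named points passed an adjusted p of 0.05 (limma), none on the left and Zrsr1 (-0.49), Prpf39 (-0.41) and Snrpd1 (0.32) on the right.

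Of 9 symbols of methyltransferases related to Mettl23, 8 were found and 7 tested. None passed in any comparison, and their log2 differences between genotypes with RANKL ran from -0.29 to 0.29 (median 0.01). Fam86 was at 13.6 to 16.1 FPKM in WT and 13.9 to 15.9 FPKM in Jmjd6-/- libraries, and Mettl21d at 11.9 to 14.7 against 10.5 to 12.3 FPKM. These were the highest of the list, and in WT stroma Mettl23, at 24.5 to 31.6 FPKM, lay above both.

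Apart from the 10 genes themselves, the entries whose log2 levels ran most like Jmjd6 over the 6 libraries, among 12577 with a mean of at least 1 FPKM, were Csf2ra (r = 0.998), Cth (0.996), Mxra8 (0.995), 5730409E04Rik (0.991) and Pcolce (0.989), and those most like Mettl23 were 5730409E04Rik (0.995), Msi1 (0.994), Cth (0.992), Csf2ra (0.991) and 2610524H06Rik (0.991). These are descriptions over 6 libraries that fall into a WT and a Jmjd6-/- set, and they select genes that differ by genotype. The likeness was in shape and not in size. Csf2ra, a subunit of the GM-CSF receptor, was at 19.4 and 21.1 FPKM in WT RANKL and at 11.1 and 11.2 FPKM in Jmjd6-/- RANKL libraries. Cth, an enzyme of cysteine synthesis, was at 53.7 to 57.8 against 31.3 to 33.0 FPKM. Msi1, an RNA-binding protein, was at 3.33 to 3.87 against 0.922 to 1.20 FPKM. None of these entries lies on chromosome 11, where Jmjd6 and Mettl23 lie, whose r with each other (0.997) would place each in the list of the other.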

How the data were processed

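Poly-A RNA of the 6 libraries had been sequenced in paired-end mode from a TruSeq preparation. Per the labels and the study's methods, the authors mapped reads to mm10 with TopHat2 2.0.10 and computed FPKM per gene with Cufflinks 2.1.1, with correction for multi-mapped reads and a strand-specific library type. The deposited FPKM were used unscaled. Titles and the stimulation field of the labels gave the groups, while another treatment field names RANKL for all samples.

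The 10 genes and the gene lists were chosen with earlier results of these data known. Named were all 10 genes, every entry within 250 kb of Jmjd6 that passed the filter, genes of each list past the threshold (up to 5 per direction) or otherwise the 2 highest in FPKM, and the 5 entries most correlated with Jmjd6 and with Mettl23. The count fixed by the range rule of the study's methods used all entries.

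Tests used limma 3.58.1 (R 4.3.3) on log2(FPKM + 0.1) and kept the 15894 entries whose mean reached 0.1 FPKM. Variances were moderated towards a mean-variance trend, and p-values were adjusted by Benjamini-Hochberg over all of these. Genotype under RANKL and the genotype difference in the response came from a model with 1 mean per group, and RANKL from an additive model with genotype. The fit was tested on simulated data with large changes in entries of at least 1 FPKM. Depth, 15500000 to 30400000 fragments, was estimated from the steps of FPKM under 0.15 and lengths less 150 bases. The limit of 3 fragments is a setting and covers no spread between samples. The difference of replicate 2 from 1 was not correlated between WT and Jmjd6-/- RANKL libraries (r = -0.08 across 11850 genes). The sample titles say nothing about shared animals or days.

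Alternatives were other added constants and filters, no trend, 2 scalings, leaving out each RANKL library, a replicate block and the 4 RANKL libraries alone. Chosen after seeing the data was a fit with each library's trend in GC content removed.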

Additional observations from a re-analysis of the deposited data

Results flagged for a closer look

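For 2 neighbours of Jmjd6 the direction between genotypes differed between unstimulated and RANKL-stimulated stroma. The flag asked for RANKL pairs that did not overlap and for the opposite sign between the unstimulated libraries, 1 against 1. RANKL pairs did not overlap for 50.7% of all entries, and the share of all entries that meet both conditions was not counted. Without stimulation St6galnac2 was at 1.14 FPKM in WT against 1.30 FPKM in Jmjd6-/- stroma, but with RANKL at 4.42 and 3.53 against 2.83 and 2.61 FPKM. Mgat5b was at 0.533 against 0.735 FPKM unstimulated and at 1.07 and 1.29 against 0.936 and 0.911 FPKM with RANKL. The test of the difference itself did not pass for either, at -0.70 on the log2 scale for St6galnac2 (unadjusted p = 0.110) and -0.72 for Mgat5b (unadjusted p = 0.144, limma), both with an adjusted p of 1.000, and it rests on 1 unstimulated library per genotype. St6galnac2 rose with RANKL over both genotypes, by 1.36 on the log2 scale (SE 0.21, limma, adjusted p = 0.00816).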

How the results depend on the processing

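Jmjd6 and Mettl23 were lower in Jmjd6-/- stroma with RANKL under every alternative, and passed the threshold under each except the fit without a filter on low values, where no gene of the 10 passed (0, with adjusted p = 0.120 and 0.142 by limma) and 2 of all genes did. The count of all genes passing between genotypes, 372, was 241 with 0.01 added, 231 with a filter at 1 FPKM, 716 with the trend in GC content removed and 88 to 3991 with 1 RANKL library left out (3991 without the first WT library, 185 and 88 without the first and second Jmjd6-/- libraries). The share higher among these, 22.0%, was 56.5% without the first and 58.3% without the second WT library. A fit that lacks 1 library takes its spread from the other pair and assumes that the lone library varies like it. The 1 gene of 10 called for RANKL, Srsf11, became 2 without a filter and 0 without the trend, after scaling to equal totals, with the GC trend removed and without either Jmjd6-/- library, and 4 without the first and 2 without the second WT library. All genes called for RANKL, 2329, were 1087 without a filter and 1132 to 3643 with 1 library left out (1132 and 1279 without the first and second Jmjd6-/- libraries, 3539 and 3643 without the WT ones). For the difference in response the count of 0 became 176 without a filter and 0 to 5 with 1 library left out, 5 without the second Jmjd6-/- library. The entries spanning over 3-fold, 3212, were 855 with 1 added and 6614 with 0.01 added, and 2 of the 10 genes spanned it each time. The cause of these shifts was not tested.

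The replicate block (the replicate number as a term) gave 1477 calls between genotypes, 94 for the difference in response and, of the 10 genes, 2 between genotypes and 0 for RANKL. The sample titles do not say whether the numbers mark shared animals or days. Replicate differences were not correlated between genotypes (r = -0.08), and those of WT ran with GC content. The block is therefore given once.

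Some small differences that missed the threshold changed sign. With the replicate block U2af2 (-0.0204) and U2af1l4 (-0.00379) did so for RANKL. With the GC trend removed U2af2 (-0.0117) did so for RANKL, Luc7l2 (-0.00172) between genotypes, and Luc7l2 (-0.00823), Luc7l3 (-0.016) and Srsf11 (-0.0208) in the difference of response. With 1 library left out, the log2 difference between genotypes ran from -0.246 to 0.00757 for U2af1, from -0.0217 to 0.186 for Luc7l2, from -0.0377 to 0.0366 for Srsf11, from -0.709 to 0.177 for Cygb and from -1.16 to 0.192 for Gm11744, and for RANKL from -0.0241 to 0.388 for Mettl23 and from -0.00439 to 0.0634 for U2af2. The difference in response ran from -0.143 to 0.111 for U2af1, -0.222 to 0.00267 for U2af1l4, -0.0117 to 0.00253 for Luc7l, -0.0508 to 0.157 for Luc7l2, -0.106 to 0.233 for Luc7l3, -0.00805 to 0.0663 for Srsf11 and -0.146 to 0.0559 for Acin1.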
